A study of Mus musculus with 66 samples.

Results

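The 10 genes described here are classical transcriptional targets of the tumour suppressor p53. They are Cdkn1a, Mdm2, Ccng1, Bax, Bbc3, Phlda3, Trp53inp1, Eda2r, Sesn1 and Zmat3. They were listed by name from their known relation to p53 and make up 10 of the 30084 gene symbols of the count table. No measured value entered the rule, but the list was drawn up with earlier results of these data known. All 10 passed the filter on low counts, which left 16145 genes. Their mRNA was followed by RNA sequencing in neurons from wild-type (WT) mouse embryos (E16.5), kept as separate male and female cultures. A lentivirus delivered a hairpin RNA that silences 1 gene (shRNA), directed at Chd8, Med13l, Ash1l, Setd5, Tbr1, Dnmt3a, Kmt2c, Mbd5 or Kdm6b. The controls received a nontargeting shRNA, and further cultures received no virus. Every condition had 3 libraries per sex, 66 libraries in 22 groups in all. Virus was washed away on day 6 and RNA was taken on day 10 of culture. All groups share the WT genotype, and the doses were set to leave a target at about 50% of its level, so none is a knockout. The labels describe replicates as wells of a triplicate and name no animals, so p-values measure the spread between these libraries, which may be technical.

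p53 is a transcription factor that is kept scarce in unstressed cells by Mdm2, a ubiquitin ligase whose gene is itself a p53 target, and that accumulates after DNA damage. Its targets stop the cell cycle, repair DNA, trigger apoptosis or feed back on p53, and in neurons the pathway is known for cell death during development and after injury. CHD8, a chromatin remodeller whose gene is a known autism risk gene, has been reported to restrain p53 through linker histone at p53 target promoters, so the Chd8 shRNA was a point of interest.

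The promoters of the members that passed the test after Chd8 or Med13l shRNA are shown because p53 acts by binding DNA near its targets. Windows of 250 bases before the annotated start came from RefSeq (GRCm38.p6), which held 12 windows for 8 of the 10 members. Trp53inp1 and Zmat3 had no entry. Capitals mark each exact match on either strand to the 10-base p53 consensus decamer, the unit that occurs in pairs in p53 response elements. Each is written 5′ to 3′ on the strand of its gene. The windows are Cdkn1a at chr17:29090729-29090978 (plus strand), Mdm2 at chr10:117710759-117711008 (minus strand), Ccng1 at chr11:40755287-40755536 (minus strand), Bax at chr7:45466899-45467148 (minus strand) and Eda2r at chrX:97377210-97377459 (minus strand).
Cdkn1a: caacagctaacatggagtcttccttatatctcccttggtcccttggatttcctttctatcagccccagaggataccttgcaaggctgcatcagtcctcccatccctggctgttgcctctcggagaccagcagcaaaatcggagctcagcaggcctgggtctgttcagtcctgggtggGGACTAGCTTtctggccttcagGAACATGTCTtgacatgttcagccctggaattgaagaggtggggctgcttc
Mdm2: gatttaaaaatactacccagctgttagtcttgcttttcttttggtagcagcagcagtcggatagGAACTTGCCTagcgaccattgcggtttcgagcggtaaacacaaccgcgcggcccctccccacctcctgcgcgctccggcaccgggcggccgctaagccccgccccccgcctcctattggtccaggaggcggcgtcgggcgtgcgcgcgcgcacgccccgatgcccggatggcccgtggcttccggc
Ccng1: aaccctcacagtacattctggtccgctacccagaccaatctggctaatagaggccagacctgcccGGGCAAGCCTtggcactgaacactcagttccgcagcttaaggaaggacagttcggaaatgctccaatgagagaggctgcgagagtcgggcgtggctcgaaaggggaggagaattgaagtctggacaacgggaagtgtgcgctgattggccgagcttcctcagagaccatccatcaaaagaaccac
Bax: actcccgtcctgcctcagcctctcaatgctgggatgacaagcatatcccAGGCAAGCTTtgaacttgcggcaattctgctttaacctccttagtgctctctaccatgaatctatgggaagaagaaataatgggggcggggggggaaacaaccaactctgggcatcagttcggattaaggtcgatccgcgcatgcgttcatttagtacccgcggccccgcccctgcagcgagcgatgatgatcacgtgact
Eda2r: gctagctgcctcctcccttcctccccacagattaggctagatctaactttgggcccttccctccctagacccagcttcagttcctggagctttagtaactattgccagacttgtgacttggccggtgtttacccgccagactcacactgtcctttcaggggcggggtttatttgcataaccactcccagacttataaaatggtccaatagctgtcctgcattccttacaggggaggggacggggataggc
Of the 8 members with a window, 5 held at least 1 decamer: Cdkn1a, Mdm2, Ccng1, Bax and Sesn1. The Eda2r window above and those of Phlda3 and Bbc3 held none. Over all 32851 windows of that length, 2341 (7.13%) held a match. That share is per window, whereas a member was counted if any of its windows held a match. The first Sesn1 window held none. The first Cdkn1a window held a pair, beginning at -73 and -51 from the start, and 21 of all windows (0.0639%) had a pair within 13 bases of each other. The 10 bases that directly follow the second of these matches differ from the consensus only at their first base, so they are not marked. The second Cdkn1a window, at chr17:29093519-29093768, held no match. A match describes letters in this window only.

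Several facts of the series touch the results. Total counts ranged from 13634872 to 66074822 per library. With sexes averaged, each target stood at 22.9% (Dnmt3a) to 45.2% (Kdm6b) of its control level in its own knockdown, with Chd8 at 32.8% and Med13l at 33.5%. A few libraries did not match what they were labelled as. The library labelled Setd5 male replicate 1 held Setd5 at 141 counts per 1000000 (CPM, scaled by TMM), against 42.9 and 42.7 in the other male Setd5 libraries. The library labelled Kdm6b male replicate 1 held Kdm6b at 39.9 CPM against 17.2 in both others, and Setd5 at 44.9 CPM against 120 and 166. In turn, the library labelled Setd5 male replicate 1 held Kdm6b at 23.1 CPM, against 47.2 and 62.6 in the other male Setd5 libraries. The library labelled Setd5 female replicate 1 had 1210 counts over 4 Y-linked genes, against at most 16 in the other female libraries. Without these 3 libraries the number of members called was the same in every sex-averaged comparison. Fits of single sexes and fits with the replicate number as a block were not repeated without them. Kdm6b female replicate 3, not among these 3, held Kdm6b at 36.2 CPM against 10.7 and 21.1 in the other female Kdm6b libraries. The female nontargeting libraries held it at 31.0, 52.3 and 54.4 CPM. Among marker lists, the 8 neuron genes summed to 5280 to 5917 CPM in the nontargeting libraries. They were Tubb3, Rbfox3, Map2, Snap25, Syt1, Slc17a7, Slc17a6 and Neurod6, a list not particular to excitatory neurons. The 8 microglial genes summed to at most 4.19 CPM and 6 endothelial genes to at most 4.43 CPM in any library. In bulk RNA, fewer cells of a type and less RNA per cell cannot be told apart.

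After Chd8 shRNA, Cdkn1a and Eda2r fell and Mdm2 rose, and the other 7 members did not pass the test. Unless stated otherwise, each comparison averaged the difference from the nontargeting libraries over both sexes (6 libraries against 6), and a gene was called at an adjusted p under 0.05 in edgeR's quasi-likelihood model, adjusted by Benjamini and Hochberg's method over 16145 genes. By that rule 22.3% of all genes were called after Chd8 shRNA (9.85% higher and 12.5% lower), against 3 of 10 members. The median log2 difference was 0.16 over the members and -0.0026 over all genes.

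Cdkn1a encodes the cyclin-dependent kinase inhibitor p21, which halts the cell cycle. Its level was 90.9, 95.3 and 85.9 CPM in the male Chd8 libraries and 52.9, 124 and 97.4 CPM in the female ones. The nontargeting libraries gave 117, 136 and 147 CPM in males and 102, 145 and 128 CPM in females. All 6 Chd8 libraries lay under the nontargeting mean of their sex, the male groups did not overlap and the female groups did. For separations within a sex (3 libraries against 3), here and below, the share of all genes was not computed. The log2 difference was -0.50 (SE 0.17), which left 70.5% of the control level (edgeR adjusted p = 0.0225). The call was lost without Chd8 female replicate 1 (log2 difference -0.36, edgeR adjusted p = 0.136), nontargeting female replicate 2 (0.0711), nontargeting male replicate 3 (0.0558) or Chd8 male replicate 3 (0.0534), and against the no virus libraries (-0.43, 0.0554).

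Eda2r encodes a receptor of the tumour necrosis factor family that binds a form of ectodysplasin. It stood at 4.27, 3.37 and 4.38 CPM in male and 5.27, 3.83 and 4.39 CPM in female Chd8 libraries. The nontargeting libraries held 5.60, 5.77 and 7.34 CPM in males and 9.84, 7.38 and 8.36 CPM in females. Every Chd8 library was under every nontargeting library, a separation that 7.09% of all genes showed in this direction. The log2 difference was -0.78 (SE 0.22), or 58.3% of control (edgeR adjusted p = 0.0067). It stayed called under all 20 alternatives that were run, with differences from -0.84 to -0.71.

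Mdm2 moved the other way. Male Chd8 libraries held 34.8, 35.7 and 39.4 CPM and female ones 40.7, 41.1 and 37.9 CPM, against 30.6, 28.5 and 34.2 CPM in male and 31.9, 36.2 and 27.5 CPM in female nontargeting libraries. Within each sex the groups did not overlap, a separation whose share over all genes was not computed. The log2 difference was 0.28 (SE 0.09), or 121% of control (edgeR adjusted p = 0.0151). It was not called without nontargeting female replicate 3 (edgeR adjusted p = 0.0634) or nontargeting male replicate 2 (0.0521), or against no virus (0.0502).

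**Figure D1:**
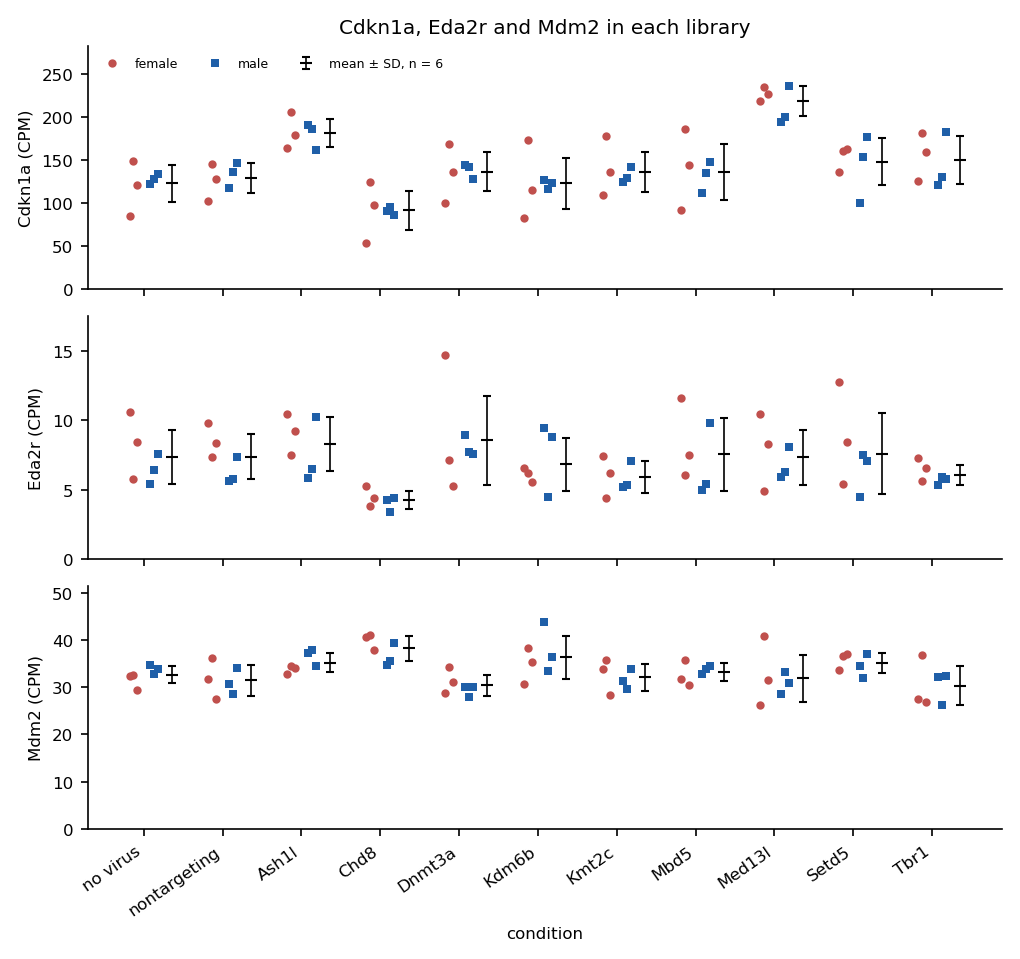
Level of Cdkn1a, Eda2r and Mdm2 in CPM (vertical axes, from 0) in each library of the 11 conditions (horizontal axis), with females as circles, males as squares and black bars for the mean ± SD of 6 libraries. The 6 Chd8 libraries hold Eda2r at 3.37 to 5.27 CPM, under all nontargeting libraries, and Cdkn1a is highest after Med13l and Ash1l shRNA.

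The remaining members are given by what they do. Among the apoptosis genes, Bax, which permeabilises mitochondria, differed by -0.04 (SE 0.14) and Bbc3, which encodes the death-promoting protein PUMA, by 0.30 (SE 0.22) on the log2 scale after Chd8 shRNA. Phlda3, an inhibitor of Akt signalling, differed by 0.19 (SE 0.21). Trp53inp1, a nuclear protein that promotes p53 activity, differed by 0.46 (SE 0.31), and the cyclin gene Ccng1 by 0.17 (SE 0.22). Sesn1, a leucine sensor that restrains mTORC1, differed by 0.14 (SE 0.16) and Zmat3, an RNA-binding regulator of splicing, by -0.12 (SE 0.23). None of these 7 was called with edgeR, the smallest adjusted p among them being 0.316 for Trp53inp1. Its 95% interval ran from -0.16 to 1.08. Trp53, the gene of p53 itself, stood at 10.3 to 17.2 CPM after Chd8 shRNA against 12.2 to 20.1 CPM in nontargeting libraries, which is -0.27 on the log2 scale (edgeR adjusted p = 0.284).

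Replicate numbers paired the Chd8 and nontargeting libraries (all 6 same-number correlations were above 0.1), and the fit with the replicate number as a block called 4 members at a background of 36.9%. Trp53inp1 was added, at 0.40 (SE 0.16, edgeR adjusted p = 0.0427), and Trp53 was then called lower at -0.26 (edgeR adjusted p = 0.0186). In single sexes, with 3 libraries against 3, no member passed in males or females (background 9.82% and 9.33%). With the block, Cdkn1a and Eda2r passed in males (background 22.1%), and Cdkn1a, Mdm2 and Eda2r in females (background 21.1%).

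Markers moved beside these values. The neuron genes summed to 4674 to 5331 CPM after Chd8 shRNA, against 5280 to 5917 CPM in nontargeting libraries, with 4 of 8 called lower and 1 higher. The 8 astrocyte genes summed to 66.9 to 202 CPM against 106 to 183 CPM, with Gfap called lower, and none of 10 proliferation genes was called. The 6 interneuron genes summed to 1190.2 to 1683 CPM, every Chd8 library under every nontargeting one (1689 to 2084 CPM), with Gad2 and Slc32a1 called lower. Their part in the member values was not tested.

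Chd8 was also set directly against the mean of the other 8 knockdowns, a comparison that uses no nontargeting library. Here 4 of 10 members passed, at a background of 34.3%. Cdkn1a was lower by -0.73 on the log2 scale (SE 0.13, edgeR adjusted p = 1.69e-05) and Eda2r by -0.76 (SE 0.18, adjusted p = 0.000485). Mdm2 was higher by 0.21 (SE 0.06, edgeR adjusted p = 0.00773) and Sesn1 by 0.30 (SE 0.12, adjusted p = 0.0406). The calls of Cdkn1a, Eda2r and Mdm2 held under all 61 alternatives. Sesn1 was not called without Chd8 female replicate 1 (edgeR adjusted p = 0.271), Chd8 male replicate 2 (0.155), Chd8 female replicate 3 (0.0671) or Chd8 male replicate 1 (0.0544). With the replicate block Bbc3 was called too, at 0.35 (SE 0.13, edgeR adjusted p = 0.027), where the background was 48.3%. The comparison includes Med13l and Ash1l, in which Cdkn1a stood highest.

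After Med13l shRNA, which lowers a subunit of the Mediator kinase module, 4 members rose and none fell: Cdkn1a, Ccng1, Bax and Trp53inp1. By the same rule 24.1% of all genes were called (11.8% higher and 12.3% lower). Of the 10 members 9 had a positive difference, with a median of 0.29 on the log2 scale against -0.01 over all genes.

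Cdkn1a held 194, 200.0 and 236 CPM in male and 218, 235 and 226 CPM in female Med13l libraries. All 6 lay over all 6 nontargeting libraries, which reached 147 CPM, and 5% of all genes showed such a separation upward. The log2 difference was 0.75 (SE 0.17), or 169% of control (edgeR adjusted p = 0.000565). Ccng1 encodes cyclin G1, a partner of a protein phosphatase that acts on Mdm2. It held 281, 298 and 278 CPM in males and 508, 180.1 and 331 CPM in females, against 142, 140.0 and 119 CPM and 182, 113 and 176 CPM in nontargeting libraries. The groups were apart in males and overlapped in females at replicate 2, and the log2 difference was 1.10 (SE 0.22), or 215% of control (edgeR adjusted p = 0.000188).

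With sexes averaged, Trp53inp1 after Med13l shRNA showed the largest difference of any member in the 9 knockdowns. It held 64.7, 70.6 and 70.4 CPM in male and 112, 35.9 and 66.6 CPM in female Med13l libraries, against 25.1, 25.3 and 24.4 CPM and 38.1, 22.3 and 31.0 CPM in nontargeting libraries. The log2 difference was 1.35 (SE 0.31), or 254% of control (edgeR adjusted p = 0.00106). Bax rose least, from 38.0 to 66 CPM in nontargeting to 54.2 to 104 CPM in Med13l libraries, by 0.45 (SE 0.14, edgeR adjusted p = 0.0124). The Bax call was lost without Med13l female replicate 1 (log2 difference 0.31, edgeR adjusted p = 0.110) or nontargeting female replicate 2 (0.36, 0.0619), and when only the compared libraries were fitted (0.0699). The other 3 were called under all 20 alternatives.

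**Figure D2:**
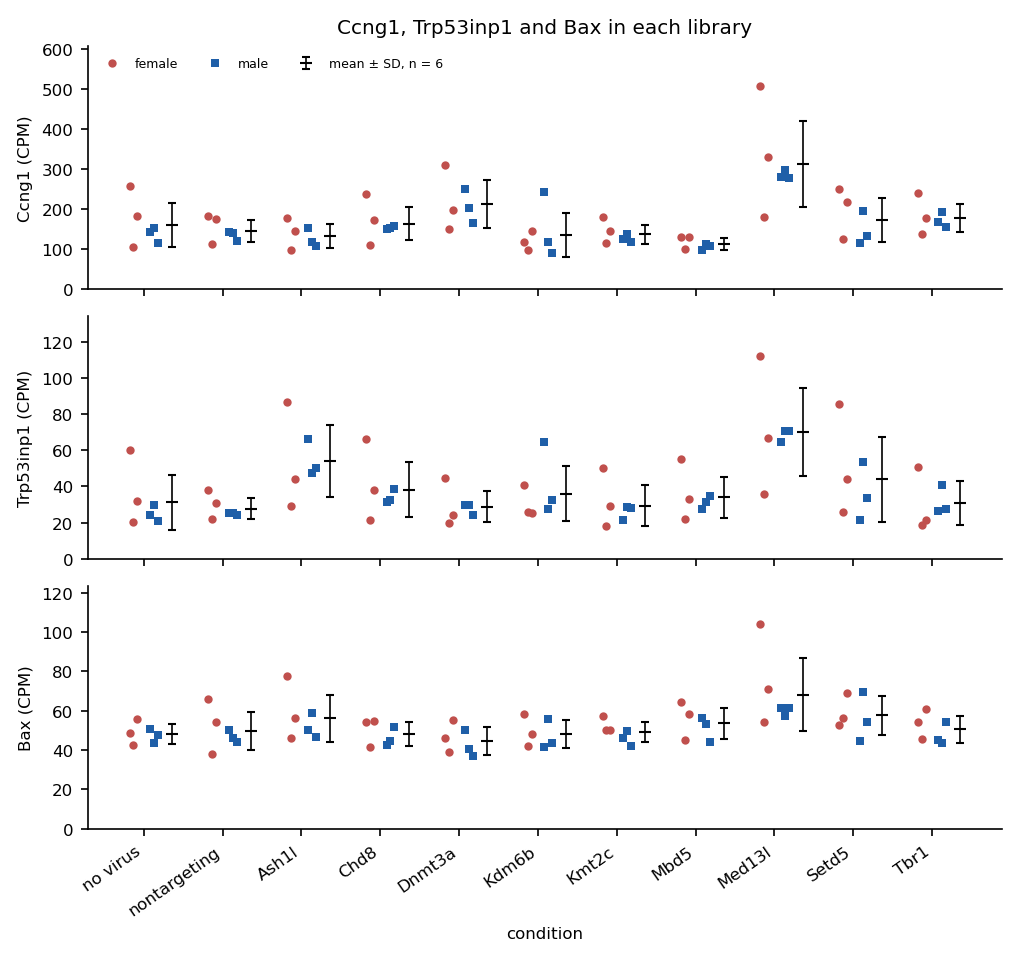
Level of Ccng1, Trp53inp1 and Bax in CPM (vertical axes, from 0) in each library of the 11 conditions (horizontal axis), with females as circles, males as squares and black bars for the mean ± SD of 6 libraries. Med13l libraries hold the highest mean of each gene, and among the female Med13l libraries replicate 1 is highest and replicate 2 lowest.

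The members that did not pass after Med13l shRNA included Mdm2 and Eda2r, which both passed after Chd8 shRNA. Mdm2 differed by 0.02 (95% interval -0.16 to 0.19) and Eda2r by 0.00 (-0.43 to 0.43) on the log2 scale. Phlda3, Bbc3, Zmat3 and Sesn1 differed by 0.30, 0.27, 0.22 and -0.16. Trp53 differed by 0.07 (edgeR adjusted p = 0.796). In single sexes, Ccng1 and Trp53inp1 passed in males (background 8.06%) and Cdkn1a and Ccng1 in females (background 10.2%). The neuron genes summed to 4334 to 4888 CPM, under every nontargeting library, and the proliferation genes to 68.4 to 134 CPM against 47.8 to 91.0 CPM. Of those 10 proliferation genes Mcm2 and Pcna were called higher and Ccnb1, Cdk1, Mki67 and Top2a lower. The interneuron genes summed to 1036 to 1831 CPM (median 1305) against 1689 to 2084 CPM (median 1851), with Gad1 and Slc32a1 called lower. In the astrocyte list Aqp4 and Gja1 were called lower, the median log2 difference was -0.52, and the sums were 119 to 301 CPM against 106 to 183 CPM. Their part in the member values was not tested.

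**Figure D3:**
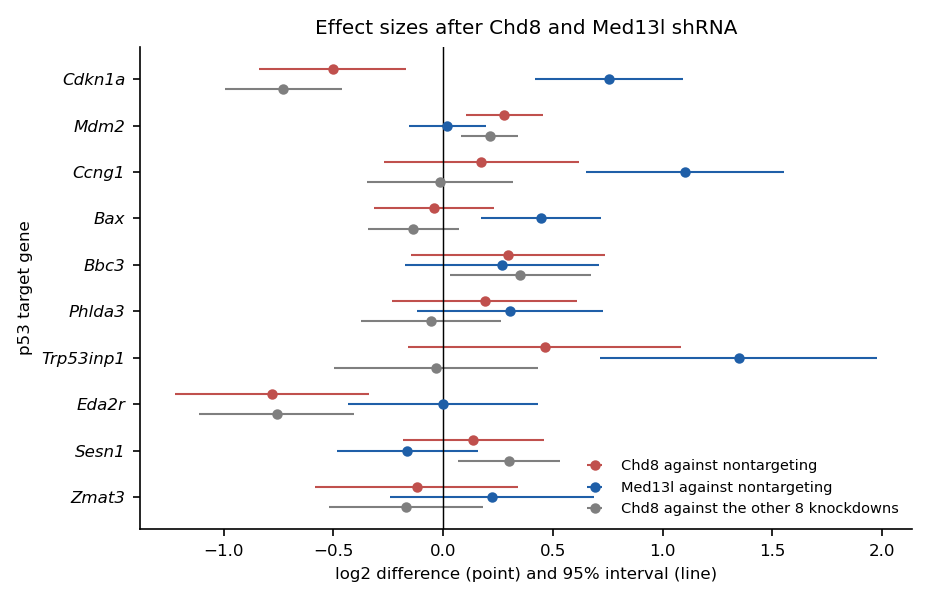
Log2 difference (points) with 95% interval (lines) of each member (vertical axis) for Chd8 against nontargeting, Med13l against nontargeting and Chd8 against the other 8 knockdowns (horizontal axis in log2 units). Cdkn1a lies at -0.50 after Chd8 and at 0.75 after Med13l shRNA, and the Med13l intervals of Ccng1 and Trp53inp1 lie above 0.5.

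After Ash1l shRNA, which lowers a histone methyltransferase, 1 of 10 members passed, at a background of 6.16%. Trp53inp1 held 66, 47.6 and 50.1 CPM in males and 86.9, 29.0 and 44.3 CPM in females, over the nontargeting libraries in males and overlapping them in females. Its log2 difference was 0.97 (SE 0.31, edgeR adjusted p = 0.0498), and the call was lost in 11 of the 12 fits that left out 1 library, with adjusted p up to 0.282. Cdkn1a held 161 to 205 CPM in Ash1l libraries. All 6 lay over all 6 nontargeting libraries, as did 2.09% of all genes, yet its log2 difference of 0.49 (SE 0.17) did not pass with edgeR (adjusted p = 0.071). Against the no virus libraries it passed, at 0.56 (edgeR adjusted p = 0.0282), where Trp53inp1 did not (0.82, edgeR adjusted p = 0.105), and it passed when only the compared libraries were fitted (0.0189). The 6 interneuron markers summed to 824 to 1200.0 CPM after Ash1l shRNA against 1689 to 2084 CPM in nontargeting libraries, and their part was not tested.

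In the other 6 knockdowns edgeR called no member, at backgrounds of 1.4% for Dnmt3a, 0.966% for Kdm6b, 0.694% for Kmt2c, 0.663% for Mbd5, 5.3% for Setd5 and 1.33% for Tbr1. At an unadjusted p under 0.05 the members counted 1 for Dnmt3a (9.74% of all genes at that threshold), 2 for Kdm6b (11.5%), 1 for Kmt2c (6.88%), 1 for Mbd5 (6.89%), 2 for Setd5 (17.7%) and 0 for Tbr1 (9.9%). DESeq2 likewise called no member. The largest of these differences was that of Zmat3 after Kmt2c shRNA. Zmat3 held 81.8, 81.4 and 83.3 CPM in male and 36.9, 108 and 70.8 CPM in female Kmt2c libraries, against 121, 115 and 149 CPM in male and 80.9, 192 and 115 CPM in female nontargeting libraries. Each Kmt2c library lay under its same-numbered nontargeting counterpart of that sex, the groups were apart in males and overlapped in females, and the log2 difference was -0.75 (SE 0.23, edgeR adjusted p = 0.162). Trp53 held 7.71 to 15.1 CPM in those libraries, its lowest condition mean, and differed by -0.56 (edgeR adjusted p = 0.150).

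Replicate numbers paired the libraries of Dnmt3a, Kmt2c, Mbd5, Setd5 and Tbr1 with the nontargeting ones, and the block added calls in each. After Kmt2c shRNA, Zmat3 was lower by -0.76 (edgeR adjusted p = 2.29e-05) and Trp53 by -0.56 (4.5e-05), at a background of 2.97%. After Dnmt3a shRNA, Ccng1 was higher by 0.53 (edgeR adjusted p = 0.00771) and Zmat3 by 0.48 (0.00568), at 6.97%. Zmat3 was also higher after Tbr1 shRNA, by 0.49 (edgeR adjusted p = 0.00561, background 6.57%), and Phlda3 after Mbd5 shRNA, by 0.49 (0.0187, background 3.32%). In the libraries labelled Setd5, Sesn1 was lower by -0.37 (edgeR adjusted p = 0.000157) and Trp53inp1 higher by 0.57 (0.00996), at 16.2%. These comparisons share the same nontargeting libraries.

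**Figure D4:**
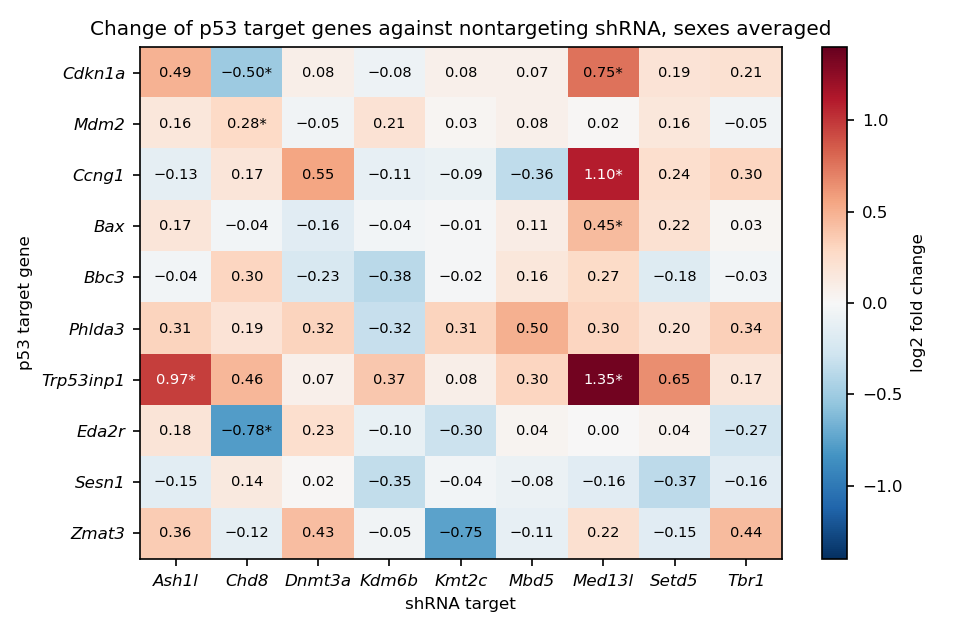
Log2 fold change against nontargeting shRNA, sexes averaged, of the 10 members (rows) in the 9 knockdowns (columns), with red for higher, blue for lower and an asterisk for an adjusted p under 0.05 in the fit without the replicate block. The asterisks fall on 3 members for Chd8, 4 for Med13l and 1 for Ash1l.

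The order of the 11 conditions differed between members. Cdkn1a ran from Med13l (218 ± 17.8 CPM, SD, n = 6) and Ash1l (181 ± 16.7) through Tbr1 (149.8 ± 28.1), Setd5 (148 ± 27.0), Kmt2c (136 ± 23.2), Dnmt3a (136 ± 22.4), Mbd5 (136 ± 32.2), nontargeting (129 ± 17.4), no virus (123 ± 21.5) and Kdm6b (123 ± 29.1) to Chd8 (91.1 ± 23.0). From Tbr1 down to Kdm6b each condition lay within 1 SD of its neighbour, while the steps from Med13l to Ash1l, from Ash1l to Tbr1 and from Kdm6b to Chd8 were larger than the SD of either. Mdm2 varied least, from 38.2 ± 2.63 CPM (SD, n = 6) after Chd8 to 30.3 ± 4.15 CPM after Tbr1 shRNA. Eda2r ran from 8.55 ± 3.23 CPM (SD, n = 6) after Dnmt3a to 4.25 ± 0.636 CPM after Chd8 shRNA, with nontargeting at 7.38 ± 1.60 CPM and no virus at 7.37 ± 1.94 CPM. Sesn1 was highest after Chd8 (36.8 ± 7.03 CPM, SD, n = 6) and lowest in the libraries labelled Setd5 (25.9 ± 4.94 CPM), and Bbc3 was highest after Chd8 (31.8 ± 7.04 CPM) and lowest in the libraries labelled Kdm6b (19.9 ± 5.48 CPM). Phlda3 was highest after Mbd5 (29.2 ± 6.97 CPM, SD, n = 6) and lowest in the libraries labelled Kdm6b (16.7 ± 3.53 CPM).

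No member passed the test between nontargeting and no virus libraries. In this comparison edgeR called 0 of 16145 genes (0%), with 113 at an unadjusted p under 0.05, none of them a member. Member differences ran from -0.15 (Trp53inp1) to 0.17 (Sesn1) on the log2 scale. Sesn1 was higher in the nontargeting library in 6 of 6 same-numbered pairs, and the other members in 2 to 4 of 6. The share of all genes with such an order was not computed. The replicate numbers paired these libraries, and with the block edgeR again called 0 genes (0%), with 323 at an unadjusted p under 0.05, of which 1 was a member, Sesn1 (0.17, SE 0.07, edgeR adjusted p = 1). DESeq2 also called no member. The sexes gave no tested difference of effect in any member for any of the 9 knockdowns, by edgeR's interaction term (background 0%, and 0.0186% for Setd5), with 0 members at an unadjusted p under 0.05. For Cdkn1a after Chd8 shRNA the effect was -0.56 in males and -0.45 in females, and the difference of -0.11 had a 95% interval from -0.78 to 0.56.

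Members did not form 1 block across conditions. Over the means of the 22 groups, Pearson's r between members had a median of 0.14 over 45 pairs, from -0.52 to 0.75, with 13 pairs under 0 and 4 above 0.5. These groups share the replicate structure described next, so the values are a description. The genes whose group means were most like Cdkn1a over the same 22 groups were Anp32e (r = 0.913), Uxs1 (0.907) and Sdhc (0.904), and for Mdm2 they were Tox4 (0.875), Map1lc3b (0.849) and Topbp1 (0.845).

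Of the wider pathway, 40 other p53 targets and 25 p53 regulators were examined, all of which passed the filter on low counts. These lists too were drawn up with earlier results of these data known. After Chd8 shRNA 10 of the 40 targets rose and 3 fell (median log2 difference 0.20, against -0.0026 over all genes). Among those that rose were Xpc, which recognises damaged bases (0.87, SE 0.10), Apaf1, the apoptosome scaffold (0.64, SE 0.11), and Rrm2b, a subunit of ribonucleotide reductase (0.70, SE 0.14). Apaf1 stood at 54.2 to 102 CPM in Chd8 libraries, over every nontargeting library (44.2 to 53.1 CPM), and Rrm2b at 43.0 to 70.9 CPM against 30.4 to 36.7 CPM. The share of all genes with such an upward separation after Chd8 shRNA is not given here, so how common it was cannot be read from these values. Btg1, Btg2, Ddb2, Plk2, Polk, Psrc1 and Rap2b rose as well. Ei24, an endoplasmic reticulum protein of autophagy and cell death (-0.59, SE 0.09), Dglucy, which encodes D-glutamate cyclase (-0.73, SE 0.16), and Tob1 fell. Of all genes 9.85% rose and 12.5% fell. With the replicate block 15 targets rose and 5 fell, where 36.9% of all genes were called. Of the 25 regulators, Chek2, Kmt5a, Sirt1, Trp53bp2 and the deubiquitinase gene Usp28 (0.52, SE 0.12) rose and Cdkn2a and Trp73 fell, and with the block 7 rose and 5 fell. The 7 of 25 called without the block stand beside 22.3% of all genes. Without nontargeting female replicate 3 or nontargeting male replicate 2 the regulators that rose were 3, and without the latter 1 fell.

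After Med13l shRNA 9 of the 40 other targets rose and 4 fell, with a median of 0.15 against -0.01 over all genes, of which 11.8% rose and 12.3% fell. Ei24 fell the most, by 1.81 on the log2 scale (SE 0.09), from 124 to 174 CPM in nontargeting to 32.2 to 56.6 CPM in Med13l libraries. Xpc rose by 0.73 (SE 0.10) and Dglucy by 0.69 (SE 0.16), while Sulf2, an extracellular sulfatase, fell by 0.54 (SE 0.12). Ak1, Btg2, Ercc5, Perp, Pidd1, Polk and Rrm2b rose as well, and Plk2 and Trp53cor1 fell. Of the 25 regulators 5 rose and 4 fell, beside 24.1% of all genes called. Hipk2, a kinase that phosphorylates p53, fell by 1.78 (SE 0.19), and Kmt5a, a lysine methyltransferase that acts on histones and p53, rose by 1.03 (SE 0.11). Cop1, Rpl11, Rpl5 and Usp28 also rose and Crebbp, Ep300 and Trp73 also fell, where Rpl5 and Rpl11 have processed copies in the genome that make their counts uncertain. The regulators that rose were 2 without nontargeting female replicate 2, Med13l female replicate 1, nontargeting male replicate 2 or nontargeting male replicate 3, and 3 without Med13l male replicate 3. Those that fell were 1 without nontargeting female replicate 2, and 2 without Med13l female replicate 1 or Med13l male replicate 2. Dglucy thus fell after Chd8 and rose after Med13l shRNA, and Ei24 fell after both, although both comparisons share the control libraries.

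After Ash1l shRNA 4 of the 40 targets rose and 4 fell, and 0 regulators rose and 3 fell. Of all genes 6.16% were called in either direction. Gadd45a, a stress sensor, fell by 1.47 (SE 0.29), Ei24 by 0.61 (SE 0.09) and Apaf1 by 0.69 (SE 0.11), while Pidd1, which assembles the PIDDosome, rose by 0.88 (SE 0.18). Aen, Tmem19 and Xpc also rose and Rrm2b and the regulator Hipk2 also fell. Without Ash1l female replicate 3, Ash1l male replicate 2 or nontargeting male replicate 1 the targets that rose were 2. The kinase gene Atm fell by 0.66 (SE 0.11) and Kmt5a by 1.02 (SE 0.12). In the other 6 knockdowns 0.663% (Mbd5) to 5.3% (Setd5) of all genes were called. There, at most 3 of the 40 targets and at most 2 of the 25 regulators passed. These were Xpc higher after Dnmt3a (0.41, SE 0.10) and Tmem19 lower after Mbd5 shRNA (-0.72, SE 0.10), Hipk2 lower after Mbd5 (-0.72, SE 0.19) and Tbr1 shRNA (-0.94, SE 0.19), and Sulf2 lower (-0.53, SE 0.12) and Kmt5a higher (0.44, SE 0.11) in the libraries labelled Kdm6b. In those labelled Setd5, Kmt5a rose (0.75, SE 0.11), the ubiquitin ligase gene Rchy1 fell (-0.84, SE 0.15), Aen (0.40, SE 0.12) and Pidd1 (0.58, SE 0.18) rose and Ephx1 fell (-0.66, SE 0.19). Without the replicate block edgeR called 0 of either list after Kmt2c shRNA, and 0 of the targets after Tbr1 shRNA. With the block, Rrm2b, Trim32 and the regulator Trp53 were lower after Kmt2c shRNA (background 2.97%). After Tbr1 shRNA, Trp53i11 and the regulators Hipk2 and Trp73 were lower and Chek2 higher with the block (background 6.57%). The block gave 3 targets higher and 1 lower for Dnmt3a, 1 and 1 for Mbd5 and 7 and 4 for Setd5. Regulators numbered 1 higher and 1 lower for Mbd5 and 4 and 1 for Setd5. Backgrounds with the block were 6.97% for Dnmt3a, 3.32% for Mbd5 and 16.2% for Setd5. Of the calls without the block only those of Tmem19 after Mbd5 and Hipk2 after Tbr1 shRNA and of Kmt5a and Rchy1 in the libraries labelled Setd5 held whichever library was left out, although Rchy1 was not called when only the compared libraries were fitted (-0.83, edgeR adjusted p = 0.125).

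The female replicates differed in the same order in every condition for most members. In all 11 female conditions, no virus included, replicate 1 held more Ccng1, Phlda3, Eda2r, Sesn1 and Trp53inp1 than replicate 2, and less Cdkn1a, Mdm2 and Zmat3. Of all genes, 15.3% were higher in replicate 1 in every female condition and 16.4% lower. The median ratio of replicate 1 to replicate 2 over those 11 conditions was 2.75 for Trp53inp1 (1.58 to 3.28), 1.82 for Ccng1, 1.68 for Eda2r, 1.63 for Phlda3 and 1.58 for Sesn1. It was 0.432 for Zmat3, 0.615 for Cdkn1a and 0.887 for Mdm2. Bax was higher in replicate 1 in 10 of 11 conditions and Bbc3 in 9, while Trp53 was lower in all 11 (median ratio 0.600). No member had such an order between replicates 1 and 2 in every male condition, and 0.13% of all genes were higher and 0.124% lower there throughout. Between male replicates 3 and 2, however, Sesn1 was lower in replicate 3 in all 11 conditions (median ratio 0.803). Ccng1 and Bbc3 were lower there in 10 of 11, while Mdm2 and Zmat3 were higher in 9. The share of all genes with such an order between those replicates is not given here.

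**Figure D5:**
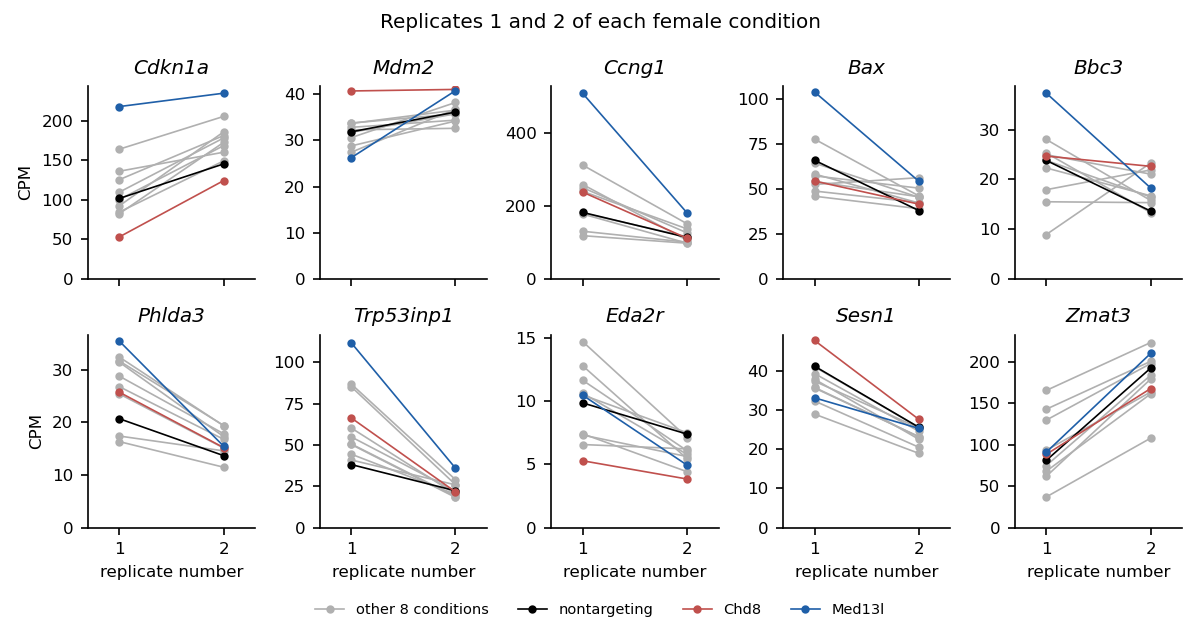
CPM (vertical axes, from 0) of each member in replicates 1 and 2 (horizontal axis) of the 11 female conditions, each condition a line, with nontargeting black, Chd8 red, Med13l blue and the other 8 conditions grey. All 11 lines fall from replicate 1 to 2 for Ccng1, Phlda3, Trp53inp1, Eda2r and Sesn1 and climb for Cdkn1a, Mdm2 and Zmat3.

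Other values moved with the replicate number. The astrocyte markers had a median sum of 237 CPM in female replicates 1 and 151 CPM in female replicates 2, and the proliferation genes 89.4 and 52.2 CPM. The median total count was 25681971 in the former and 33411955 in the latter. The part of these in the member values was not tested. The spread within groups differed between members. The SD of log2 CPM within groups was 0.56 for Trp53inp1 and 0.14 for Mdm2, against a median of 0.30 over all genes.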

How the data were processed

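Polyadenylated RNA of 66 libraries was sequenced with stranded libraries, per the labels' protocols. Reads were aligned with STAR to mm10 and counted with featureCounts, per the submitters' processing notes; versions and strand settings are not given in the sources used here. The values are raw counts per gene, deposited by the authors. Odd values made up 26.7% of counts from 1 to 20 and 49.1% of counts of at least 1000, so low counts were mostly even. The cause was not tested. Columns named Luc were taken as the nontargeting shRNA, and 6 library columns that match no sample were not used. Rows without a symbol (0.690% to 1.41% of counts) were left out and 149 rows with repeated symbols were summed. The counts were fitted with edgeR 4.0.16 (R 4.3.3, limma 3.58.1) by its quasi-likelihood test over all 22 groups, with filterByExpr and TMM scaling (factors 0.874 to 1.06). Adjusted p-values are Benjamini-Hochberg over 16145 genes, with a threshold of 0.05. Levels are CPM, and log2 CPM, used for correlations and the spread within groups, has a prior count of 2. Log2 fold changes, SE and 95% intervals come from the fit, with edgeR's default prior count. DESeq2 1.42.0 was an alternative, beside RLE scaling, no filter, a replicate block, halved counts, no virus as control, fewer libraries in the fit, omission of the 3 libraries that went against their labels and leaving out each library. On simulated Chd8 against nontargeting counts of 16145 genes, 79 of 100 genes changed 2-fold and 45 of 100 changed 1.5-fold were recovered, with 8 false calls. The simulated libraries were drawn independently, without the shared replicate order of the data. Far fewer genes were changed than the 22.3% called after Chd8 shRNA, so these rates need not hold for the real comparison.

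Replicate numbers were taken to pair libraries where deviations from group means correlated above 0.1 in every same-number pair. The lowest correlation was 0.123 for Chd8, 0.104 for Dnmt3a, 0.121 for Kmt2c, 0.127 for Mbd5, 0.192 for Setd5, 0.176 for Tbr1, 0.147 for no virus and 0.339 for Chd8 with the other 8 knockdowns. No 2 replicates of a group agreed within sampling noise (chi-square per gene 7.92 to 386 over 66 pairs). The members and gene lists were chosen with earlier results of these data known. From the lists, the text gives values for up to 6 called genes per knockdown with the smallest adjusted p.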

Additional observations from a re-analysis of the deposited data

How the results depend on the processing

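No member reversed direction where it was called. The number of members called moved as follows. For Ash1l it went from 1 to 0 with RLE scaling or with no filter on low counts, to 2 when only the compared libraries were fitted, and to 0 to 1 when 1 library was left out. For Chd8 it went from 3 to 1 (Eda2r) against the no virus libraries, and to 2 to 3 when 1 library was left out. For Med13l it went from 4 to 3 when only the compared libraries were fitted, and to 3 to 4 when 1 library was left out. For Chd8 against the other 8 knockdowns it was 3 to 5 when 1 library was left out. Against the no virus libraries the count for Ash1l stayed at 1, with Cdkn1a in place of Trp53inp1. For Kmt2c it ranged from 0 to 1 when 1 library was left out, with Zmat3 called without Kmt2c female replicate 2 (-0.96, edgeR adjusted p = 0.0384). For Bbc3 in Chd8 against the other 8 knockdowns, leaving out Kdm6b female replicate 1 gave a call (0.38, edgeR adjusted p = 0.0492).

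With the replicate number as a block, the members called rose from 3 to 4 for Chd8, 4 to 5 for Chd8 against the other 8 knockdowns, 0 to 2 for Dnmt3a, 0 to 1 for Kmt2c, 0 to 1 for Mbd5, 0 to 2 for Setd5 and 0 to 1 for Tbr1. For Ash1l, Kdm6b and Med13l the numbers did not pair every library (lowest correlation -0.108, 0.0354 and 0.0190), and 5, 4 and 5 of 6 libraries correlated best with their own number. The block gave 3 members for Ash1l (background 17.2%), 1 for Kdm6b (7.87%) and the same 4 for Med13l (41.5%). Those for Ash1l were Cdkn1a (0.50, edgeR adjusted p = 0.000179), Trp53inp1 (0.91, 3.21e-05) and Zmat3 (0.40, 0.0136). DESeq2 called the same number of members as edgeR in each comparison. Eda2r rested on 163 to 396 counts per nontargeting library.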
